A study of Mus musculus with 8 samples.

Results

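Members of the phylum Bacteroidota other than the family Muribaculaceae were examined in mouse stool. They were taken as every ASV (amplicon sequence variant, one distinct sequence among the reads) whose taxonomy string named Bacteroidota, did not name Muribaculaceae and had reads in at least 1 mouse. The rule found 31 of the 434 ASVs with reads, and they held 171920 of 914504 reads, or 18.8%. They fell into 5 families, with 11 ASVs of Bacteroidaceae, 10 of Rikenellaceae, 6 of Tannerellaceae, 3 of Prevotellaceae and 1 of Marinifilaceae. By genus, there were 11 ASVs of Bacteroides, 9 of Alistipes, 4 of Parabacteroides, 2 of Prevotellaceae_UCG-001, and 1 each of Odoribacter and Rikenella. Another 2 carried Incertae_Sedis as genus name and 1 had no genus name. No member carried a species name, and the 31 members shared 9 distinct taxonomy strings. ASV numbers count down the deposited table from its top, and that table holds no sequences, so no variant could be shown by its bases.

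The 4 knockout mice had the genotype ko for Gpr15l, which encodes a secreted ligand of the receptor GPR15, and the 4 control mice had the genotype wt. All 8 were female, and knockouts and controls were littermates that had lived together for 8 weeks when stool was taken. The labels give no age, cage, litter or strain background. Bacterial reads do not show the genotype of the host, so the labels could not be checked against the targeted gene. Mice are called knockout 1 to 4 and control 1 to 4 in the order of deposit, which pairs no knockout with a control. The comparison asks whether the loss of Gpr15l goes with another stool community among cage-sharing siblings.

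The Bacteroidota of the gut are Gram-negative anaerobes, and many of them live on polysaccharides of the diet and of host mucus. Bacteroides and Parabacteroides carry many gene clusters for taking up and cutting glycans, and Prevotellaceae are known mainly for degrading plant polysaccharides. Alistipes tolerates bile and ferments amino acids, and Odoribacter is known as a producer of short-chain fatty acids, among them butyrate. Muribaculaceae, the family left out here, is another common group of glycan degraders in the mouse gut.

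Libraries held 129792 to 226654 reads in knockouts and 38578 to 122026 in controls, so depth separated the genotypes without overlap. A 95% Wilson interval reached at most 0.489 percentage points to either side of a genus share, and 0.0840 points or less where the genus was below 1%. Where no read was seen, the limit set by 3 reads was 0.00132% of the deepest library and 0.00778% of the shallowest. Such limits cover counting error only, since PCR reads carry no molecular identifiers. A share of reads cannot tell fewer bacteria of one kind from more of all others.

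Bacteroidota outside Muribaculaceae made up a smaller share of stool reads in knockouts than in controls, and Alistipes carried most of that gap. The members together made up 11.6%, 17.6%, 19.9% and 10.1% of all reads in knockouts 1 to 4. In controls 1 to 4 they made up 21.8%, 51.4%, 22.1% and 29.9%. All 4 knockouts lay below all 4 controls, with means of 14.8% ± 4.70 and 31.3% ± 13.9 (SD, n = 4 each). Without Alistipes the members made up 11.9% ± 2.74 in knockouts and 13.1% ± 3.98 in controls, with overlapping ranges. Muribaculaceae lay between 43.7% and 66.4% in knockouts and between 13.6% and 52.5% in controls, so the phylum as a whole came to 70.8% ± 7.19 and 64.6% ± 8.68. These sums are given as descriptions, without a test.

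**Figure D1:**
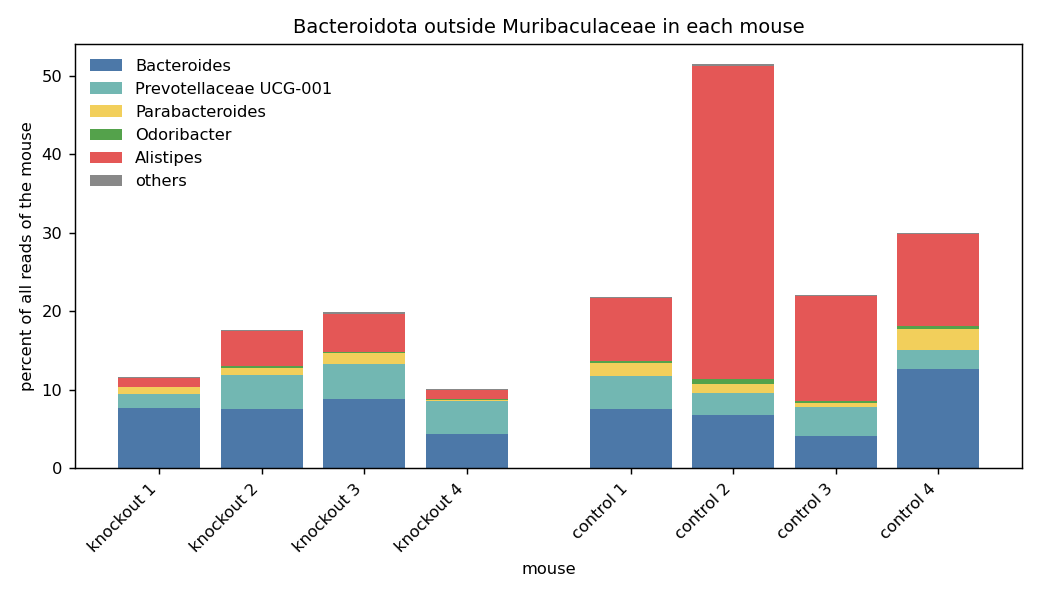
Stacked bars give the percent of all reads of each mouse (vertical axis) that belonged to each genus of Bacteroidota outside Muribaculaceae, with knockouts at left and controls at right. The red Alistipes segment spans 1.16% to 4.88% in knockouts against 8.11% to 39.8% in controls, while the other segments together overlap between the genotypes.

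Within the members the genera changed places. Alistipes held 9.94%, 25.2%, 24.6% and 11.9% of the member reads in knockouts 1 to 4 and 37.2%, 77.4%, 60.5% and 39.3% in controls 1 to 4. Bacteroides held 66.3%, 43.2%, 44.2% and 43.2% of them in knockouts and 34.9%, 13.2%, 18.8% and 42.4% in controls. Bacteroides was thus the largest genus of the members in all 4 knockouts and in control 4, and Alistipes in the other 3 controls. Shares of member reads depend on each other, since they add up to a fixed total. Prevotellaceae_UCG-001 held 14.9% to 41.7% of member reads in knockouts against 5.55% to 19.0% in controls.

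Rikenellaceae, the family of Alistipes and Rikenella, held a lower share of reads in these knockouts than in these controls. Its share of all reads was 1.28%, 4.49%, 4.97% and 1.23% in knockouts 1 to 4 and 8.15%, 40.0%, 13.5% and 11.8% in controls 1 to 4. Every knockout lay below every control, and control 2 stood far above the other 3 controls. The fitted log2 fold change, knockout over control, was -2.35 ± 0.53 SE (edgeR quasi-likelihood test, adjusted p = 0.0301 over 39 families). It was 1 of 5 member families past the threshold of 0.05, where 5.13% of all families tested were. Families wholly lower in knockouts were 7.69% of those tested, and Rikenellaceae was the 1 member family among them. Leaving out any 1 knockout ended the call, with edgeR adjusted p from 0.0812 to 0.183, and so did leaving out knockout 1 and control 2 together (log2 fold change -1.55, adjusted p = 0.124). Without control 2 alone it was -1.72 (edgeR adjusted p = 0.0291). A fit with log2 library size as a covariate gave -1.53 ± 0.77 (edgeR adjusted p = 0.914). Library size separated the genotypes without overlap, so no fit with this covariate, here or below, can reliably tell depth from genotype. Rikenellaceae passed in 10 of 19 alternatives and failed in 9. With rarefied counts it had -2.47 (edgeR adjusted p = 0.0345). It also passed with DESeq2 (-2.26, adjusted p = 0.00817) and limma-voom (-2.17, adjusted p = 0.0292).

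Alistipes supplied nearly all reads of that family. Its share of all reads was 1.16%, 4.44%, 4.88% and 1.20% in knockouts 1 to 4 and 8.11%, 39.8%, 13.4% and 11.8% in controls 1 to 4. Control 2, the highest mouse, was the shallowest library (38578 reads), and knockout 1, the lowest, was the deepest (226654 reads). The genotypes did not overlap in this genus, as in 6.33% of all genera tested for that direction. Its log2 fold change of -2.35 ± 0.58 SE had an edgeR adjusted p of 0.0990 over 79 genera and missed the threshold, with a 95% interval of -3.64 to -1.05. DESeq2 gave -2.42 with an adjusted p of 0.00826. In edgeR the value was -1.72 without control 2 (adjusted p = 0.108), -1.70 without knockout 1 and control 2 (0.179) and -1.32 with log2 library size as a covariate (1). Rikenella, the second genus of the family, stood at 0.0726% ± 0.0388 for knockouts and 0.0922% ± 0.0574 for controls. Its fitted log2 fold change had the opposite sign to these means, at 0.61 ± 0.82 SE (edgeR adjusted p = 0.949). Scaled by total reads only, it was -0.34.

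In share of all reads, 2 Alistipes variants lay wholly lower in knockouts, while ASV2547 overlapped between the genotypes. Whether the variants differ in the size of their change was not tested. ASV2829, the most abundant, had shares of 0%, 2.02%, 2.21% and 0.506% in knockouts 1 to 4 and 2.75%, 27.3%, 9.41% and 6.81% in controls 1 to 4. ASV2822 stood at 0.522%, 0.877%, 1.18% and 0.299% in knockouts against 1.53%, 10.7%, 3.21% and 2.36% in controls. In both, all knockouts lay below all controls, and control 2 was the highest mouse. These were the members without overlap, 2 of 19 tested, where 6.04% of all ASVs tested lay wholly lower in knockouts. ASV2547, the third by mean share, stood at 0.521%, 1.36%, 1.35% and 0.342% in knockouts against 3.66%, 1.54%, 0.672% and 2.43% in controls. Its ranges overlapped, and control 1 rather than control 2 was highest.

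ASV2829 and ASV2822 together came to 1.90% ± 1.45 for knockouts and 16.0% ± 15.1 for controls, a ratio of means of 8.42. Without control 2, the highest mouse, the control mean was 8.69% ± 4.19 (n = 3) and the ratio 4.57. The other 7 Alistipes variants together made up 1.02% ± 0.590 and 2.24% ± 1.31, a ratio of 2.20 (2.35 without control 2), with overlapping ranges. This division was made after the values were seen and has no test. Of the smaller variants, ASV2832 made up 0.0591% ± 0.0323 and 0.117% ± 0.0826, and ASV2639 made up 0.0442% ± 0.0270 and 0.0445% ± 0.0253. ASV2822 had the smallest p of the members (log2 fold change -2.25 ± 0.74 SE, edgeR adjusted p = 0.228 over 265 ASVs). ASV2829 had -3.15 ± 1.54 (edgeR adjusted p = 0.431) and ASV2547 had -0.83 ± 0.64 (edgeR adjusted p = 0.730). Without knockout 1 and control 2 together the log2 fold change of ASV2829 was -1.88 and that of ASV2822 was -1.46. With library size as a covariate they were -1.26 and -0.88.

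**Figure D2:**
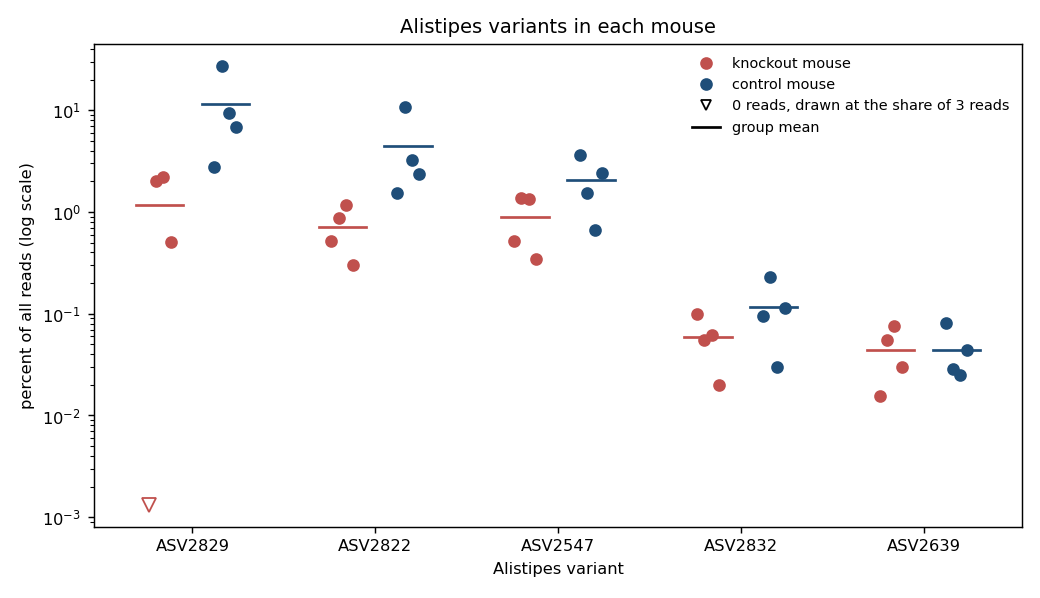
Each point is the percent of all reads (log scale) of 1 Alistipes variant in 1 mouse, red for knockouts and blue for controls, with a bar at the arithmetic mean of each genotype. The open triangle marks 0 reads of ASV2829 in knockout 1, drawn at 0.00132%; red and blue points separate for ASV2829 and ASV2822 and overlap for ASV2547, ASV2832 and ASV2639.

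Bacteroides showed no such separation. It made up 7.72%, 7.62%, 8.80% and 4.35% of all reads in knockouts 1 to 4 and 7.62%, 6.77%, 4.15% and 12.7% in controls 1 to 4. All 4 knockouts lay within the range of the controls, with means of 7.12% ± 1.92 and 7.81% ± 3.57. The fitted log2 fold change of 0.55 ± 0.57 SE (edgeR adjusted p = 0.949, 95% interval -0.73 to 1.84) turned to -0.13 when libraries were scaled by total reads only. It was also negative without knockout 1 (-0.29).

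Mice with similar Bacteroides totals held different mixes of its variants. ASV2588 made up 0.628%, 3.46%, 3.42% and 2.18% of all reads in knockouts 1 to 4 and 2.00%, 2.01%, 1.01% and 4.68% in controls 1 to 4. ASV2578 made up 3.78%, 1.01%, 1.51% and 0.559% in knockouts and 2.53%, 1.92%, 1.35% and 3.98% in controls. Knockout 1 was thus the lowest of all mice in ASV2588 and the highest knockout in ASV2578. Within the genus, ASV2588 held 8.14% of Bacteroides reads in knockout 1, 38.9% to 50.2% in the other knockouts and 24.2% to 36.9% in controls. ASV2578 held 49.0% in knockout 1, 12.9% to 17.2% in the other knockouts and 28.4% to 33.3% in controls. The 4 controls therefore resembled each other in the ASV2578 part of Bacteroides (31.4% ± 2.15), and the knockouts lay on both sides of them.

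ASV2582, another Bacteroides variant, had a wide spread from mouse to mouse. It made up 0.00441%, 0.183%, 1.47% and 0.0652% of all reads in knockouts 1 to 4 and 0.0254%, 0.752%, 0.165% and 0.0336% in controls 1 to 4. It was present in all 8 mice, with its highest share in knockout 3 and its second highest in control 2. ASV2576 averaged 1.05% ± 0.905 in knockouts and 1.54% ± 0.664 in controls, and ASV2602 0.872% ± 0.270 and 0.645% ± 0.234. ASV2603 averaged 0.379% ± 0.192 and 0.362% ± 0.143, and ASV2604 0.178% ± 0.0462 and 0.124% ± 0.0770. All 5 overlapped between the genotypes, and their edgeR adjusted p-values were 0.487 or higher. The fitted log2 fold change of ASV2576 was 0.31 ± 0.81 SE, although its mean share was lower in knockouts. ASV2569 had reads in 5 mice, at no more than 0.0655%. ASV2591 had 49 reads in knockout 1 and 289 in knockout 2 and 0 in the other 6 mice, and ASV2573 and ASV2643 had 3 and 10 reads in 1 mouse each.

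Prevotellaceae_UCG-001 was close to a single variant. ASV2530 held 30143 of its 30146 reads and made up 1.73%, 4.28%, 4.46% and 4.19% of all reads in knockouts 1 to 4. In controls 1 to 4 it made up 4.15%, 2.85%, 3.63% and 2.39%. Knockout 1 was the lowest of the 8 mice, and the other 3 knockouts were the highest. The genus had a log2 fold change of 0.72 ± 0.42 SE (edgeR adjusted p = 0.804, 95% interval -0.23 to 1.67). ASV3448 of the same genus had 3 reads in knockout 4, and ASV2526, named Incertae_Sedis within Prevotellaceae, had 2 reads in knockout 3.

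Parabacteroides, a genus of Tannerellaceae, made up 0.856%, 0.925%, 1.44% and 0.143% of all reads in knockouts 1 to 4 and 1.71%, 1.17%, 0.487% and 2.72% in controls 1 to 4. The genotypes overlapped, and the log2 fold change was -0.34 ± 0.72 SE (edgeR adjusted p = 0.949, 95% interval -1.97 to 1.28). ASV2805 was seen in all 8 mice, at 0.143% to 0.866% in knockouts and 0.487% to 1.26% in controls. ASV2634 had 0 reads in knockout 4 and in control 3, which allows up to 0.00199% and 0.00495%, and made up 0.334% to 1.18% in the other 6 mice. In those mice without ASV2634, ASV2805 was the whole genus. ASV2614 was seen in knockout 1 (258 reads) and control 4 (325 reads), and ASV2635 in control 4 (15 reads). The Tannerellaceae variant named Incertae_Sedis, ASV2801, stood at 0.0537% ± 0.0336 for knockouts and 0.0388% ± 0.0133 for controls (genus test, edgeR adjusted p = 0.846). A Tannerellaceae variant without a genus name, ASV2683, had 2 reads.

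Odoribacter, the butyrate-associated genus of Marinifilaceae, consisted of ASV2762. It made up 0.0419%, 0.229%, 0.131% and 0.110% of all reads in knockouts 1 to 4 and 0.135%, 0.630%, 0.322% and 0.266% in controls 1 to 4. Control 2 was the highest mouse, and control 1 lay below knockout 2, so that the genotypes overlapped. The log2 fold change of the genus was -0.96 ± 0.60 SE (edgeR adjusted p = 0.804, 95% interval -2.30 to 0.37). Butyricimonas, the other genus on the list of butyrate-producing Bacteroidota, was not among the members, nor were Barnesiellaceae among the families.

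Across the members, single variants were not called different between the genotypes. Of the 31 members, 19 had at least 10 reads in at least 3 mice and were tested, and the 12 below that level held 1075 reads. With edgeR, 0 of the 19 had an adjusted p below 0.05, as had 0% of all 265 ASVs tested. At an unadjusted p below 0.05 there was 1, ASV2822, lower in knockouts, where 2.26% of all ASVs were lower at that p. The count was also 0 with DESeq2 (2 at an unadjusted p below 0.05), with limma-voom and with limma on centred log-ratios. Fitted log2 fold changes were below 0 in 8 of the 19 and in 43% of all ASVs tested, with medians of 0.33 and 0.19. With total reads only, 13 of the 19 were below 0, and the medians were -0.51 and -0.33. Among genera, 0 of 7 members tested passed with edgeR, where 1.27% of all genera did, and 1 of 7 (Alistipes) had an unadjusted p below 0.05, as 3.8% of all genera had in that direction. Log2 fold changes were below 0 in 3 of the 7 genera and 41.8% of all genera tested. They were below 0 in 3 of the 5 families and 51.3% of all families tested, and the 1 family lower at an unadjusted p below 0.05 was Rikenellaceae (7.69% of all families).

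**Figure D3:**
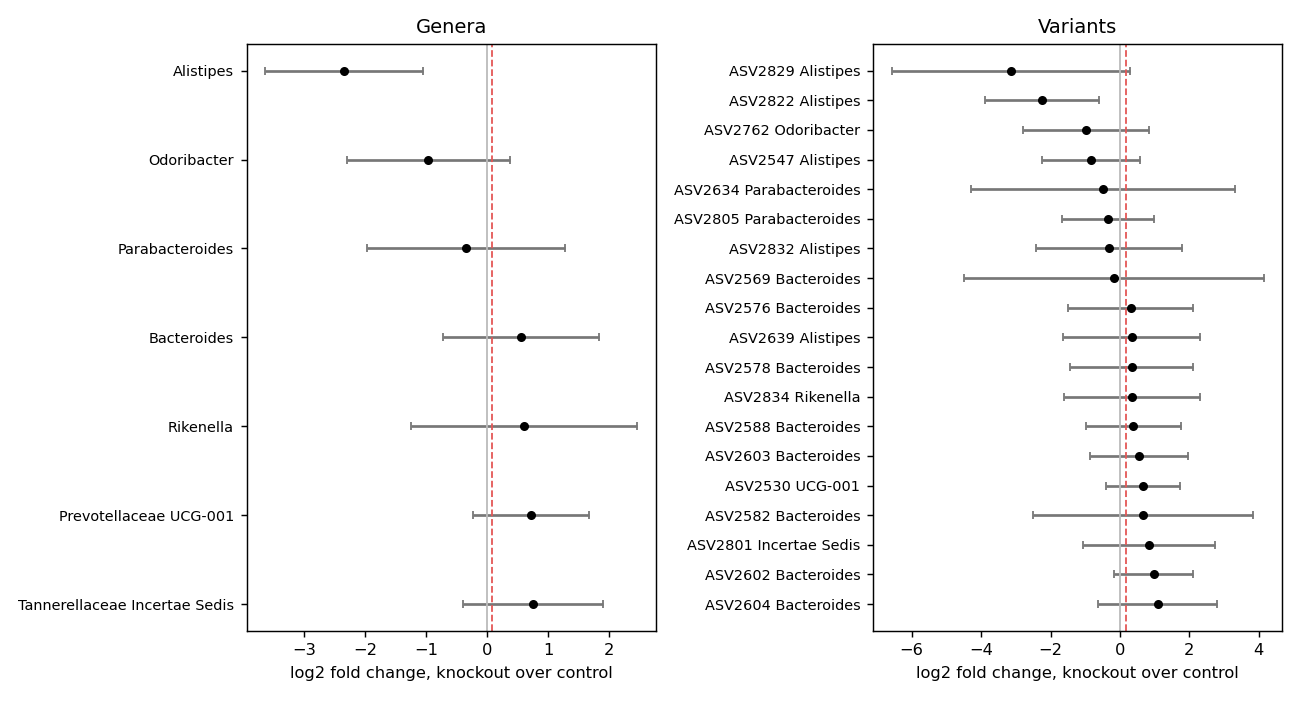
Points are fitted log2 fold changes (horizontal axis, knockout over control) of the 7 member genera (left) and 19 member variants (right) tested with edgeR, with 95% intervals as bars. The grey line is at 0 and the red dashed line at the median of all genera (0.078) or all ASVs (0.19) tested; the intervals of Alistipes and of ASV2822 lie wholly below 0, and all others shown include 0.

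The makeup of each genus was compared next, since a variant's percent of its own genus does not depend on other taxa. Of all genera with reads, 24 had at least 2 variants and 50 reads in every mouse, and the percent held by the leading variant was tested in each. Within Alistipes, ASV2829 held 0%, 45.4%, 45.3% and 42.3% of reads in knockouts 1 to 4 and 33.9%, 68.5%, 70.5% and 57.9% in controls 1 to 4. The difference of means was -24.4 percentage points (two-sided exact permutation p = 0.114, adjusted p = 0.457 over the 24 genera). Without knockout 1 it was -13.4. ASV2588 held 6.40 points more of Bacteroides in knockouts (exact p = 0.571), and 15.6 points more without knockout 1. ASV2805 differed by 1.13 points in Parabacteroides (exact p = 0.943). None of the 24 genera passed after adjustment (0%), and the genotypes did not overlap in 4.17% of them, with no member genus among those. The smallest p of this exact test is 0.0286, so that most genera would have to reach it for any to pass.

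Some variants of 1 genus kept a nearly fixed ratio of reads from mouse to mouse. The Bacteroides variants ASV2576 and ASV2578 had the steadiest ratio among 105 pairs of the 15 members with at least 10 reads in every mouse. It was 0.625, 0.679, 0.537 and 0.570 in knockouts 1 to 4 and 0.735, 0.673, 0.545 and 0.566 in controls 1 to 4, although the share of ASV2578 itself ran from 0.559% to 3.98%. The SD of this log2 ratio was 0.17, against a median of 1.32 for the 27 pairs within a genus and 1.22 for pairs from different genera. In the whole table, 4 of 5565 pairs of ASVs had an SD this low, with that pair counted. Next came ASV2602 over ASV2604, at 4.05 to 8.28 (SD 0.33), and ASV2588 over ASV2603, at 4.28 to 9.89 (SD 0.40). The 4 steadiest pairs were all within Bacteroides. By contrast the ratio of ASV2588 to ASV2578 went from 0.166 in knockout 1 to 3.90 in knockout 4. Pairs were picked for their ratios, so these values are a description.

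In Alistipes, ASV2829 and ASV2822 had ratios of 1.69 to 2.93 in 7 mice. Knockout 1 stood apart, with 1183 reads of ASV2822 and 0 of ASV2829, which allows a ratio of up to 0.00254. On log2 CPM, which scales reads to a common library total, the pair had similar ranks over the 8 mice (Spearman rho = 0.976, exact permutation p = 0.000397, adjusted p = 0.00119 over 3 variant pairs). Pearson's r was 0.652 (exact p = 0.10, adjusted p = 0.150), and 0.988 without knockout 1 and control 2. As deviations from genotype means it was 0.373 (exact p = 0.358), and the 0 of knockout 1 enters this value and the first. On centred log-ratios the rank match did not pass (rho = 0.476, exact permutation p = 0.243, adjusted p = 0.327), and r was 0.273 (exact p = 0.450, adjusted p = 0.450). The 0 of knockout 1 enters these values too. Without knockout 1 and control 2 the r on centred log-ratios was 0.978. ASV2547 over ASV2822 ran from 0.143 in control 2 to 2.40 in control 1. The leading Parabacteroides variants ASV2805 and ASV2634 had r = 0.770 (exact p = 0.0192, adjusted p = 0.0575), 0.392 without knockout 4 and control 4, and rho = 0.857 (exact p = 0.0107, adjusted p = 0.0161). ASV2634 had 0 reads in knockout 4 and in control 3. Both enter r and rho, and that of control 3 also enters the 0.392. The leading Bacteroides variants ASV2588 and ASV2578 had r = -0.158 (exact p = 0.707, adjusted p = 0.707) and rho = -0.0952 (exact p = 0.840, adjusted p = 0.840).

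**Figure D4:**
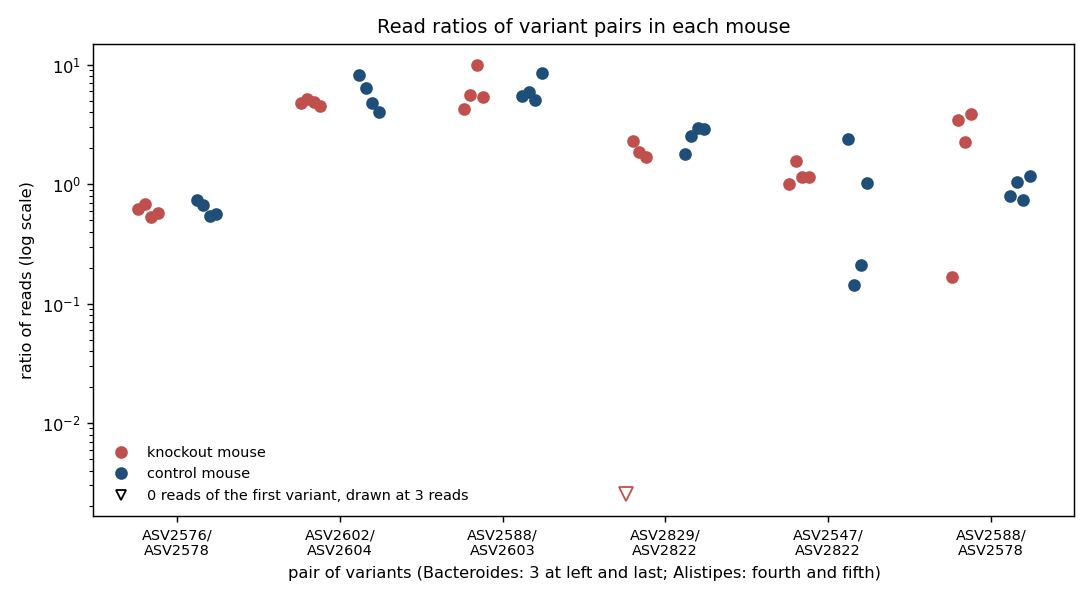
Points are the ratio of reads (log scale) of the named variant pairs in each mouse, red for knockouts and blue for controls. ASV2576 over ASV2578 stays between 0.537 and 0.735 in all 8 mice, ASV2588 over ASV2578 spreads from 0.166 to 3.90, and the open triangle marks the upper limit of 0.00254 for ASV2829 over ASV2822 in knockout 1.

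Across mice, Alistipes rose and fell with Odoribacter and Bacteroides with Parabacteroides, as far as shares of all reads show. Correlations of log2 CPM were computed for the 10 pairs of the 5 main genera over 8 mice. Alistipes and Odoribacter had r = 0.898 (exact permutation p = 0.00290, adjusted p = 0.0268) and rho = 0.929 (exact p = 0.00223, adjusted p = 0.0223). Without knockout 1 and control 2, the mice farthest from the median, r was 0.738. Since Alistipes separated the genotypes, deviations from genotype means were correlated too, with r = 0.841 (exact p = 0.0139, adjusted p = 0.0694). Bacteroides and Parabacteroides had r = 0.871 (exact p = 0.00536, adjusted p = 0.0268) and rho = 0.762 (exact p = 0.0368, adjusted p = 0.184). Without knockout 4 and control 3 r was 0.791, and on deviations from genotype means it was 0.928 (exact p = 0.00347, adjusted p = 0.0347). Neither pair passed with centred log-ratios (r = 0.841 and 0.819, both with an exact permutation adjusted p of 0.0792). Nor did either pass as shares of reads outside Muribaculaceae (r = 0.767 and 0.658, both with an exact permutation adjusted p of 0.228). On that base r was 0.322 for Alistipes and Odoribacter without knockout 1 and control 2. For Bacteroides and Parabacteroides it was 0.683 there without control 2 and control 3. All shares of a mouse have the same total, which by itself ties them together. The remaining 8 pairs had adjusted p-values of 0.661 or higher (exact permutation, n = 8).

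**Figure D5:**
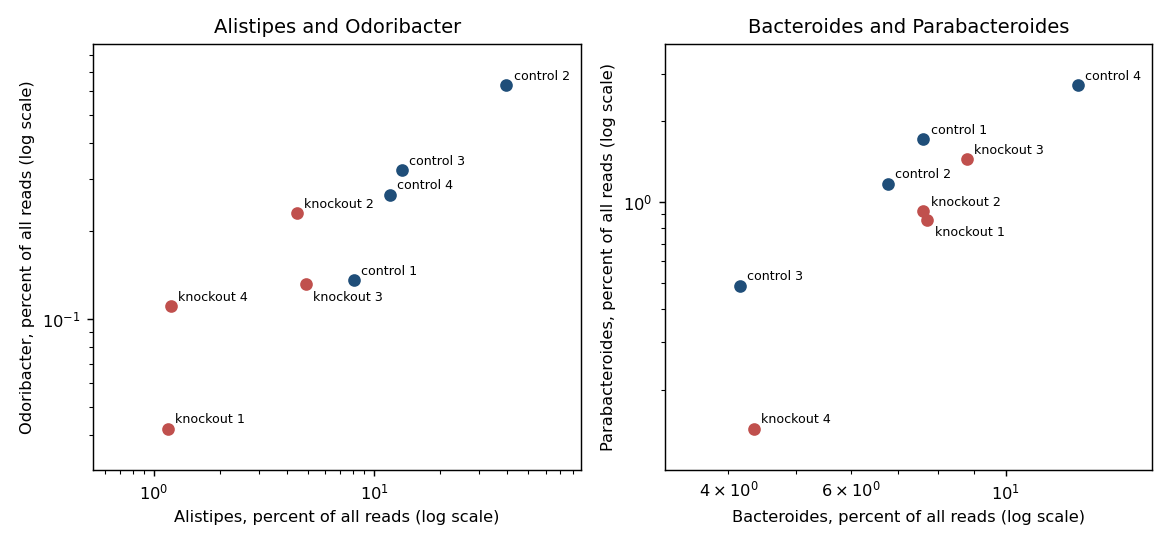
Each point is 1 mouse, red for knockouts and blue for controls, placed by its percent of all reads in both genera of a pair, with log scales on all axes. Odoribacter runs from 0.0419% to 0.630% as Alistipes runs from 1.16% to 39.8%, with control 2 highest in both, and Parabacteroides runs from 0.143% in knockout 4 to 2.72% in control 4 as Bacteroides runs from 4.15% to 12.7%.

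The number of variants seen per genus did not separate the genotypes. At an equal depth of 38578 reads, Bacteroides was expected to show 8.31 ± 0.894 variants in knockouts and 7.74 ± 0.496 in controls (two-sided exact permutation p = 0.314). Alistipes was expected to show 5.23 ± 0.937 and 5.46 ± 0.910 (exact p = 0.686), and Parabacteroides 2.00 ± 0.816 and 2.25 ± 1.26 (exact p = 1). All 3 had an adjusted p of 1 over the 38 genera compared. The smallest p of this exact test is 0.0286, so most of the 38 genera would have to reach it for any to pass. Of the 31 members, 16 occurred in every one of the 8 mice and gave 78.1% of member reads, and 10 occurred in 1 mouse and gave 154 reads. ASV2826 of Alistipes gave 107 of those 154 reads, all in knockout 2. ASV2828 of the same genus had 7 reads in knockout 3, and ASV2830 and ASV3693 had 3 and 2 reads in control 3.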

How the data were processed

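Stool DNA of 8 mice was amplified over region V4 of the 16S rRNA gene (primers at positions 515 and 806, 10 ng of DNA, 25 PCR cycles) and read from both ends at 151 bases, per the labels' protocols. The deposited values are raw read counts per ASV, made with DADA2 going by what the deposited table is called. R 4.5.1 and limma appear, without a role, in the submitters' processing notes. The sources used here do not give read filters, chimera removal or the taxonomy database. Members, lists and tests were chosen with earlier results of these data known.

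Counts of ASVs, and sums per genus and family, that reached 10 reads in 3 or more mice were fitted over the whole table with edgeR 4.0.16 (R 4.3.3, robust quasi-likelihood test). TMM factors were computed for each level and ran from 0.517 to 1.38 for ASVs. The Benjamini-Hochberg adjustment ran over all units of a level. SE is the absolute log2 fold change over the root of F. Unnamed and Incertae_Sedis genera were kept apart by family, which gave 79 genera tested. Exact permutation tests ran over 70 assignments of mice or, for correlations, all pairings of 8 mice (0.5 reads added before log2). Alternatives were DESeq2 1.42.0, limma-voom and centred log-ratios (limma 3.58.1), other scalings, filters, rarefied counts, the table without Muribaculaceae, library size as a covariate and leaving out mice. Python 3.11.15, NumPy 2.4.6, SciPy 1.17.1 and pandas 2.3.3 were used. The code was tested on simulated data. All p-values treat the mice as independent, which shared cages or litters may break. Named are member families and genera with reads, member ASVs past the threshold, of 0.1% mean share or more, among the 5 smallest p or among the 2 leading variants of a main genus. Other members were named after their values were seen.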

Additional observations from a re-analysis of the deposited data

Results flagged for a closer look

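In 64 sets of 4 values (a share in the mice of 1 genotype), the highest or lowest mouse was compared with the other 3 by the gap to its nearest neighbour as part of the whole range. In 9 of them this exceeded Dixon's 95% critical value of 0.829. Chance gives about 1 in 20 for independent, normally distributed values. Some sets hold the same reads and some are mostly 0, so the count of 9 cannot be judged against that rate. Control 2 stood apart with 40.0% Rikenellaceae against 8.15% to 13.5% in the other controls, and with 39.8% Alistipes against 8.11% to 13.4%, which are nearly the same reads. Knockout 1 stood apart with 1.73% of reads in Prevotellaceae_UCG-001 against 4.19% to 4.46% in the other knockouts, and with the same 1.73% in its variant ASV2530. Knockout 1 also had 0% of its Alistipes reads in ASV2829, against 42.3% to 45.4% in the other knockouts. ASV2582 of Bacteroides reached 1.47% in knockout 3 against 0.00441% to 0.183%. ASV2569 of Bacteroides reached 0.0539% in knockout 2 against 0% to 0.00798%. The other 2 show presence in 1 mouse and no more, with the other 3 knockouts at 0 reads, namely Prevotellaceae Incertae_Sedis (0.00154% in knockout 3) and Tannerellaceae without a genus name (0.00133% in knockout 4).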

How the results depend on the processing

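Member ASVs past the threshold stayed at 0 under all 19 alternatives, and member genera at 0 in 18, with 1 (Alistipes, -2.42) under DESeq2. The member family count of 1 (Rikenellaceae) fell to 0 in 9 of 19 alternatives. Its log2 fold change was then -2.15 with centred log-ratios, -2.47 without a filter, -2.30 with 10 reads in at least 5 mice, -1.55 without knockout 1 and control 2 and -1.53 with library size as a covariate. With 1 mouse left out its values ran from -2.49 to -1.72 and the family count from 0 to 1. The cause was not tested.

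Log2 fold changes, leading shares and correlations that changed sign had not passed the test. Bacteroidaceae turned to -0.13 with total reads only, -0.032 without knockout 1 and control 2, -0.97 with the covariate and -0.024 without knockout 1, and Bacteroides likewise to -0.13, -0.31, -0.76 and -0.29. With 1 mouse left out they reached 0.84 and 0.90. Rikenella turned to -0.34, -0.088, -0.085 and -0.73 under the same settings, and reached 0.96 with 1 mouse left out. Tannerellaceae turned to 0.015 without knockout 4 and 0.094 without control 4, and Parabacteroides to 0.083 without control 4, with lowest values of -0.96 and -1.21 when 1 mouse was left out. The leading share turned to -1.93 points in Bacteroides and -0.760 in Parabacteroides with 2 leading variants together, and in Parabacteroides to between -10.5 and -4.79 without knockout 4, control 1 or control 4. With mice left out it ran from -10.5 to 13.1 points in Parabacteroides.

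Genus pairs past the threshold by Pearson's r fell from 2 to 0 with centred log-ratios and with reads outside Muribaculaceae. With centred log-ratios r turned to -0.158 for Alistipes and Prevotellaceae_UCG-001, 0.719 for Bacteroides and Prevotellaceae_UCG-001, 0.281 for Bacteroides and Odoribacter, and 0.278 for Prevotellaceae_UCG-001 and Parabacteroides. The 0.719 (exact permutation adjusted p = 0.143) became -0.135 without knockout 1 and control 3. With reads outside Muribaculaceae it turned to -0.551 for Alistipes and Bacteroides, -0.633 for Alistipes and Prevotellaceae_UCG-001, 0.179 for Bacteroides and Prevotellaceae_UCG-001, -0.333 for Prevotellaceae_UCG-001 and Odoribacter, and -0.293 for Parabacteroides and Odoribacter. By Pearson's r, variant pairs past the threshold went from 0 to 1 with centred log-ratios, and r of ASV2588 and ASV2578 turned to 0.402. The 1 pair was ASV2805 and ASV2634 (r = 0.760), with the 0 reads of ASV2634 in knockout 4 and control 3 included. By rank, that pair passed on both scales, while ASV2829 and ASV2822 passed on log2 CPM but not on centred log-ratios. Without knockout 1 and control 2, r of ASV2829 and ASV2822 was 0.988 on log2 CPM and 0.978 on centred log-ratios. With Muribaculaceae as partner, on centred log-ratios, r turned to 0.781 for Bacteroides and 0.375 for Parabacteroides. Neither passed (exact permutation adjusted p = 0.0858 and 0.482), and without knockout 1 and control 3 the value for Bacteroides was -0.0740. No paired analysis was possible because the labels give no number shared between knockouts and controls. The smallest control library of 38578 reads limits what can be seen of rare variants.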

Other observations

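Counted among reads outside Muribaculaceae only, Bacteroidota members made up 34.7%, 34.0%, 35.3% and 29.4% in knockouts 1 to 4 and 45.9%, 59.5%, 32.1% and 46.8% in controls 1 to 4. The knockouts lay close together (33.3% ± 2.71) and the controls spread more widely (46.1% ± 11.2), with overlap through control 3. On this base Alistipes still separated the genotypes, at 3.45% to 8.68% in knockouts and 17.1% to 46.1% in controls. Bacteroides made up 16.5% ± 4.5 and 12.4% ± 6.57 of these reads, and Prevotellaceae_UCG-001 8.39% ± 2.91 and 5.26% ± 2.47, both with overlap.

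Correlations with Muribaculaceae were added after the values were seen, for the 5 main genera over 8 mice. On log2 CPM Alistipes had r = -0.905 (exact permutation p = 0.000521, adjusted p = 0.00260) and rho = -0.929 (exact p = 0.00223, adjusted p = 0.00558). Without knockout 1 and control 2 r was -0.867, and on deviations from genotype means it was -0.873 (exact p = 0.00174). Odoribacter had r = -0.877 (exact permutation p = 0.00412, adjusted p = 0.0103). Shares that add up to a fixed total tend to oppose each other, and on centred log-ratios r was -0.348 for Alistipes (exact permutation p = 0.385) and -0.129 for Odoribacter (exact permutation p = 0.717). Prevotellaceae_UCG-001 had r = 0.0766 on log2 CPM (exact permutation p = 0.851, adjusted p = 0.960). Without knockout 1 and control 4, the mice farthest from the median on that scale, r was 0.933, so the low value depends on them. On centred log-ratios Prevotellaceae_UCG-001 had r = 0.897 (exact permutation p = 0.00523, adjusted p = 0.0262). That was 0.271 without knockouts 1 and 4, the mice farthest from the median there, and so rests on them.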
